A study of Homo sapiens with 4 samples.

Results

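Long intergenic noncoding RNAs (lincRNAs) were examined in the human ovarian cancer cell line OVCAR8 after knockdown of FAM49B. Its members were chosen by their measured level: the set comprised every gene that the deposited table classes as lincRNA and whose mean over the 4 libraries was at least 2 FPKM (a read level corrected for gene length and library size), with the SNHG host genes left out. The rule kept 166 of 7629 lincRNAs in a table of 58735 genes. Another 3132 lincRNAs had a mean above 0 but below 2 FPKM, and 4 SNHG genes would have passed. XIST is counted among the 166 but its level is not described, which leaves 165.

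LincRNAs are RNA polymerase II transcripts that lie between protein-coding genes, are usually capped and often spliced, and have no long reading frame. Most are less abundant than mRNAs and many stay in the nucleus, where they can scaffold proteins, build nuclear bodies or mark transcription from a nearby promoter. NEAT1 builds paraspeckles, MALAT1 gathers in nuclear speckles beside splicing factors, and NORAD is a cytoplasmic RNA that binds PUMILIO proteins, which repress mRNAs.

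The control group, shCON, received a scrambled short hairpin RNA and was labelled genotype WT (2 libraries). Cells of the group shFAM49B carried GIPZ short hairpins against FAM49B and were labelled as a FAM49B knockdown (2 libraries). Per the labels' protocols the plasmids were transfected transiently with Lipofectamine 3000 and cells were taken 36 h later, whereas the design text calls the knockdown stable. Which holds is not given in the sources used here, nor is the number of hairpins. The libraries held 15639559 and 16875353 reads in shCON and 16288871 and 16290200 in shFAM49B. FAM49B stood at 7.41 and 7.60 FPKM in shCON and at 1.06 and 1.02 FPKM in shFAM49B, 7.21-fold lower (log2 fold change -2.06, SE 0.081, limma adjusted p = 0.00054). The summed level of 13 epithelial and ovarian carcinoma markers was 137 and 130 FPKM in shCON and 71.4 and 71.7 FPKM in shFAM49B. Most of the sum was KRT8, KRT18 and KRT19. KRT19 alone went from 53.5 and 49.7 FPKM in shCON to 2.32 and 2.72 FPKM in shFAM49B. PAX8, MUC16, MSLN and KRT7 stayed at or below 0.232 FPKM, and SOX17 was the 1 of the 13 at 0 in every library. Of the 8 tested, 5 fell (KRT19, CDH1, EPCAM, KRT18 and MECOM), EMX2 rose from 1.51 and 1.84 to 3.04 and 3.15 FPKM, and KRT8 and WT1 did not pass. The summed level of 8 fibroblast and mesenchyme markers, nearly all of it VIM, was 92.8 and 89.2 against 131 and 137 FPKM. The 7 leukocyte markers summed to 1.35 to 2.04 FPKM and the 5 endothelial markers to 0.190 to 0.501 FPKM. The part of these shifts in the lincRNA results was not tested. In bulk RNA, fewer cells of a kind and less RNA per cell cannot be told apart.

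Sequences of NORAD come first, because it was the highest of the 165 lincRNAs. PUMILIO proteins bind the RNA motif written here as DNA, TGTANATA. It was searched on the sense strand of the longest GENCODE 29 transcript of each lincRNA. NORAD held 15 matches and its copy HCG11 held 16, the most in any of the 7629 lincRNAs, and 4 lincRNAs had at least 10. At least 1 match was found in 20 of 166 members (12%), against 9.48% of all lincRNAs. NEAT1 held 6 matches, and 17 members held 1 to 4. The counts and shares were not adjusted for transcript length. A match is a description and not a shown binding site. The stretches below, with the motif in capitals, show the motif at similar positions in both RNAs.

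NORAD, bases 750 to 779: tggaaggcctgTGTATATAatatgaaaaag

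HCG11, bases 749 to 778: cggaaggcctgTGTATATAatatgaaaaag

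NORAD, bases 1230 to 1259: aaatcacatttTGTAAATAcctttttgtta

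HCG11, bases 1225 to 1254: aaaccacatttTGTAAATAtctttttgtta

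NORAD, bases 3582 to 3611: caatgctactgTGTATATAatggaaaactt

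HCG11, bases 3570 to 3599: caatactactgTGTATATAatggaaaactt

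MALAT1 and NEAT1 share another kind of element at their ends, where U-rich tracts pair with an A-rich tract and stabilize RNAs that lack an ordinary poly(A) tail. The stretches below, with the U-rich tracts (written as T) and the A-rich tract in capitals, show the same build in these otherwise unlike transcripts.

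MALAT1, bases 8253 to 8375: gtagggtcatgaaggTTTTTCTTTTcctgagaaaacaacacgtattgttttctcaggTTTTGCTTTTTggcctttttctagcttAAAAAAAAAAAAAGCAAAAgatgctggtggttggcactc

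NEAT1, bases 22641 to 22743: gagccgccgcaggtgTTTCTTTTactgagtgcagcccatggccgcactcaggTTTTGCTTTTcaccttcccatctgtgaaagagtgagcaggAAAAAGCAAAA

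As a set, the lincRNAs were lower after FAM49B knockdown more often than higher. Of the 166, 46 fell and 20 rose (limma on log2(FPKM + 1), Benjamini-Hochberg adjusted p under 0.05 over all 13775 tested genes), and 100 did not pass. Over all tested genes the directions were the other way round, with 26.4% higher and 15.8% lower, 42.2% in all. The median log2 fold change of the lincRNAs was -0.24 (quartiles -0.46 and 0.13), against 0.05 over all tested genes. Because the threshold used the mean over both groups, 27 lincRNAs passed with only the shCON mean at 2 FPKM and 9 with only the shFAM49B mean. Of the 130 with both means at 2 FPKM or more, 29 fell and 15 rose, with a median of -0.16. A member that passed through 1 group alone had to differ, so its call is no support for a direction. Both shFAM49B libraries lay below both shCON libraries for 77 lincRNAs and above them for 28, where 31.6% and 43.1% of all tested genes did so, 74.7% in all. The deposited values already carry a scaling factor between libraries, and dropping it moved the counts: rescaled to TPM, 69 lincRNAs fell and 7 rose, with 4362 of all genes lower and 1597 higher. Relative to the recovered reads, 67 fell and 7 rose, with 4173 and 1722 over all genes. The median log2 fold change of all tested genes was -0.17 and -0.13 under these scalings, and the lincRNA median minus that of all genes was -0.33 and -0.29, against -0.29 for the deposited values.

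**Figure D1:**
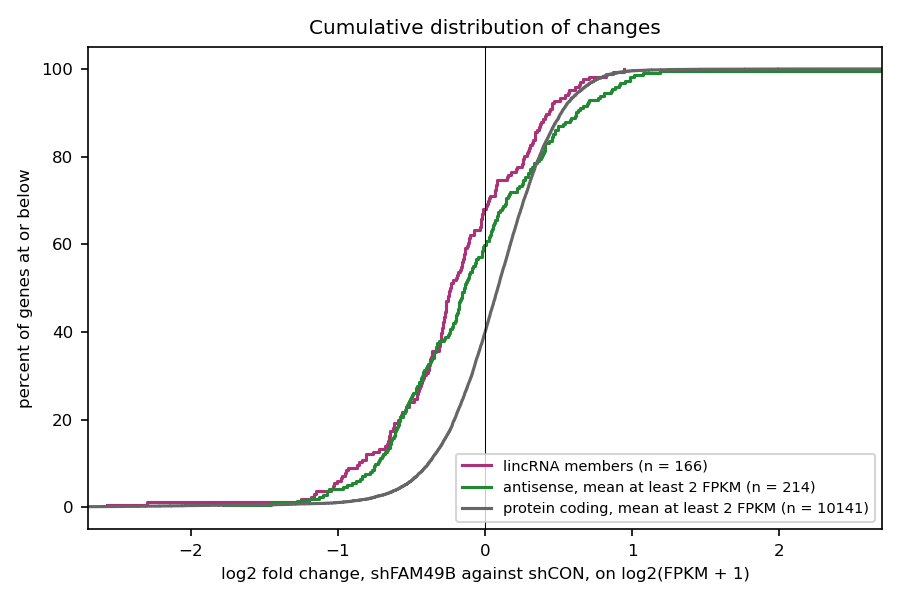
Cumulative share of genes (vertical axis, percent) at or below each log2 fold change of shFAM49B against shCON (horizontal axis, on log2(FPKM + 1)). The curves of the 166 lincRNAs and of 214 antisense genes run to the left of the curve of 10141 protein-coding genes over most of the range, with medians of -0.24, -0.14 and 0.09.

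The same comparison was made among genes of like level. Of the 159 lincRNAs between 2 and 10 FPKM, 26.4% fell and 11.3% rose, with a median log2 fold change of -0.23. Of 5619 protein-coding genes in that band, 18.2% fell and 20.4% rose, with a median of 0.02. Of 200 antisense RNAs in the band, the other main class of long noncoding RNA, 29% fell and 14.5% rose. These shares are descriptions, and the difference between classes was not tested.

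Falls outnumbered rises in each subset of the lincRNAs examined. The subsets include the 27 members that passed through shCON alone and the 9 that passed through shFAM49B alone. Their direction was fixed by the rule, so the subsets are no separate support for a direction. Among 49 single-exon genes 18 fell and 6 rose, and among 117 spliced ones 28 fell and 14 rose. Among 48 lincRNAs with at least 100 reads in every library 18 fell and 6 rose, and among 39 with under 20 reads in some library 12 fell and 4 rose. Among 87 genes of at least 1 kb 29 fell and 10 rose, and among 79 shorter ones 17 fell and 10 rose. The next class down, 202 lincRNAs between 1 and 2 FPKM, had a median of -0.27, with 47 lower and 4 higher. Genes of that class can likewise pass the filter at a mean of 1 FPKM through 1 group alone.

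**Figure D2:**
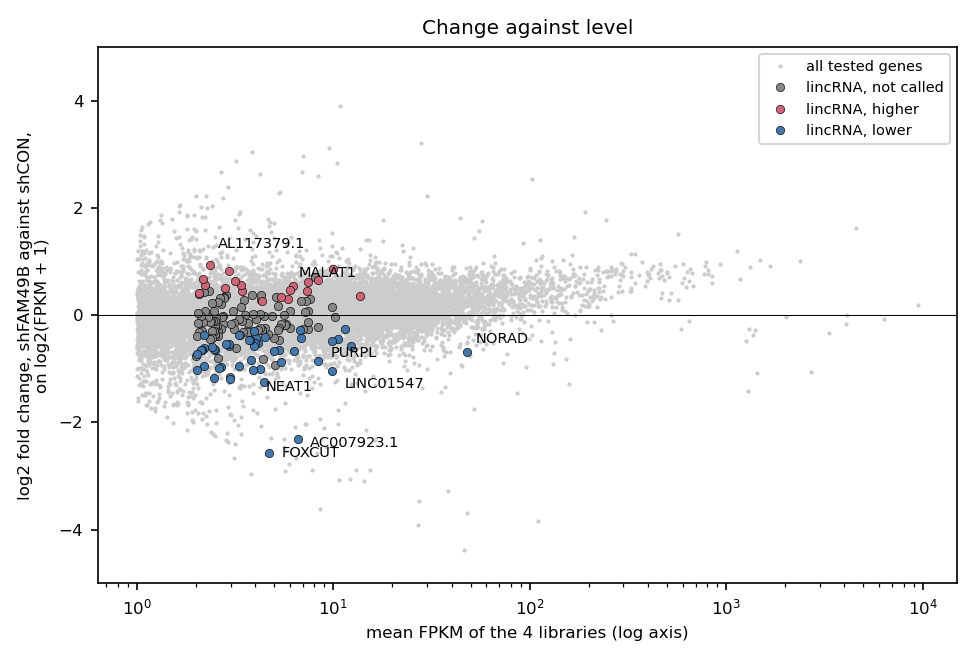
Log2 fold change of shFAM49B against shCON (vertical axis, on log2(FPKM + 1)) against the mean FPKM of the 4 libraries (horizontal log axis), for the 165 lincRNAs over all tested genes in grey. Colours show lincRNAs that rose, fell or did not pass, and NORAD stands alone at the right of the lincRNAs at a mean of 47.9 FPKM.

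Most of the set was scarce. Only 6 of the 165 described lincRNAs averaged at least 10 FPKM, 40 of the 166 lay between 5 and 10 FPKM and 119 below 5 FPKM, and the median was 3.53 FPKM. The fewest reads in any library had a median of 47.5 per lincRNA, so single genes rested on few reads. The 165 lincRNAs together summed to 799 and 822 FPKM in shCON and to 665 and 691 FPKM in shFAM49B. They took 0.197% and 0.202% of the recovered reads in shCON and 0.135% and 0.132% in shFAM49B. Nearest the threshold from above stood AP001767.3, AC091982.3 at 2.61, 2.83, 1.80 and 0.828 FPKM and AC090617.5 at 2.68, 2.81, 0.736 and 1.81 FPKM, with the shCON libraries first. Just below it stood AC084018.1 at a mean of 1.99 FPKM and AL008723.1 and LINC02163 at 1.98 FPKM.

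NORAD, a single-exon RNA on chromosome 20 (36045622 to 36050960, minus strand, GRCh38), was the most abundant and fell. Its level was 59.5 and 59.1 FPKM in shCON and 38.1 and 35.1 FPKM in shFAM49B. Both shFAM49B libraries lay below both control libraries. The group levels were 59.3 ± 0.319 and 36.6 ± 2.09 FPKM (SD, n = 2), 1.62-fold lower (log2 fold change -0.68, SE 0.062, limma adjusted p = 0.0022). NORAD made up 7.45% and 7.18% of the summed FPKM of the 165 lincRNAs in shCON and 5.72% and 5.08% in shFAM49B. It passed the test under every alternative run.

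HCG11 (chromosome 6, 26521709 to 26527404, plus strand) is a near copy of NORAD, and is named here after its values were seen. Aligned with blastn, NORAD bases 1 to 4586 matched HCG11 bases 7 to 4591 at 90.5% identity over 4661 aligned positions, and a further 803 positions matched at 89.3%. How reads that fit both copies were counted is not given in the sources used here, so the values of both are uncertain. HCG11 stood at 4.94 and 4.44 FPKM in shCON and at 1.97 and 1.90 FPKM in shFAM49B. The groups did not overlap, and the level was 2.43-fold lower (log2 fold change -0.95, limma adjusted p = 0.0023). HCG11 entered the set through the shCON mean alone. It therefore had to be lower, and its separation and call are no support for a direction. NORAD held 5360 and 5831 reads in shCON and 3117 and 2806 in shFAM49B, and HCG11 held 475, 468, 172 and 162 in the same order.

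Among the other most abundant lincRNAs falls outnumbered rises. LINC01547, a spliced RNA of chromosome 21, stood at 14.5 and 12.8 FPKM in shCON and at 5.33 and 6.89 FPKM in shFAM49B, 2.23-fold lower (log2 fold change -1.05, limma adjusted p = 0.0036). PURPL, which p53 induces and which restrains p53, stood at 11.4 and 10.8 FPKM in shCON and at 6.33 and 5.09 FPKM in shFAM49B, 1.94-fold lower (log2 fold change -0.85, limma adjusted p = 0.0037). In both, the groups were well apart. AC015813.1 was 1.44-fold lower (11.7 ± 0.268 against 8.07 ± 0.351 FPKM), AC138904.1 was 1.40-fold lower (12.4 ± 0.147 against 8.84 ± 0.243 FPKM), and KC877982.1 was 1.54-fold lower (14.8 ± 1.47 against 9.61 ± 0.927 FPKM). EBLN3P, a remnant of an ancient bornavirus-like gene, was 1.21-fold lower (12.5 ± 0.25 against 10.3 ± 0.427 FPKM). AC138904.1 shares 298 exonic bases with AC138904.3 on the opposite strand (1.89 ± 0.175 against 1.12 ± 0.312 FPKM). Whether counting used strand is not given, so reads of that pair cannot be told apart.

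AC026471.4 and AL035446.1 were the abundant lincRNAs that rose. AC026471.4 stood at 6.47 and 6.87 FPKM in shCON and at 10.9 and 15.5 FPKM in shFAM49B, 1.98-fold higher (log2 fold change 0.87, limma adjusted p = 0.011). AL035446.1 stood at 11.8 and 12.1 FPKM in shCON and at 14.7 and 16.4 FPKM in shFAM49B, 1.30-fold higher (log2 fold change 0.35, limma adjusted p = 0.015). The knockdown libraries lay above the controls in both genes, and those of AC026471.4 were far apart from each other. LINC02381 did not pass the test at 9.44 and 9.18 against 9.85 and 11.1 FPKM. Some of these calls did not hold under other settings. EBLN3P failed whichever library was left out (limma adjusted p 0.0541 to 0.125). AL035446.1 failed without shCON 1, without shCON 2 or without shFAM49B 2 (limma adjusted p = 0.0766, 0.0613 and 0.0639), and also rescaled to TPM, relative to recovered reads and with voom (limma adjusted p = 0.168, 0.134 and 0.126). KC877982.1 failed without shFAM49B 2 (limma adjusted p = 0.0505), and AC026471.4 without shCON 1 (limma adjusted p = 0.0558).

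**Figure D3:**
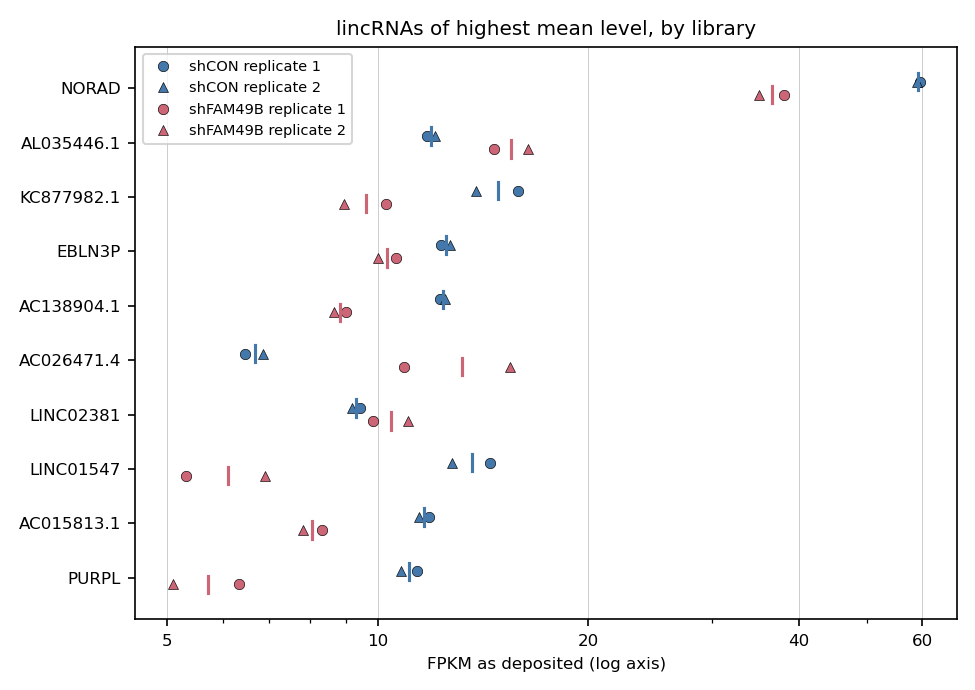
FPKM as deposited (horizontal log axis) of 10 of the lincRNAs of highest mean level, with 1 point per library and a vertical bar at each group mean. NORAD lies between 35.1 and 59.5 FPKM, above all others. The 2 groups do not overlap for any gene shown, which also held for 74.7% of all tested genes.

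The largest fall was that of FOXCUT, a short RNA transcribed upstream of FOXC1, a forkhead transcription factor gene, on chromosome 6 (1605531 to 1606079, plus strand). It stood at 10.3 and 6.98 FPKM in shCON and at 1.57 and 0 FPKM in shFAM49B, from 58, 43, 8 and 0 reads. Both knockdown libraries lay below both controls, 1 of them without a read, and 3 reads in a gene of 1 kb equal 0.162 to 0.200 FPKM across the libraries. The group levels were 8.65 ± 2.36 and 0.783 ± 1.11 FPKM, 11-fold lower (log2 fold change -2.57, SE 0.45, limma adjusted p = 0.0099). FOXCUT entered the set through the shCON mean alone, so it had to be lower and its call is no support for a direction. Without shCON 1 it did not pass (log2 fold change -2.32, limma adjusted p = 0.0536). Without shFAM49B 1 the log2 fold change was -3.25 and without shFAM49B 2 it was -1.89, so the size rested on single libraries.

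AC007923.1, a spliced RNA of chromosome 17, came next. It stood at 9.98 and 13.3 FPKM in shCON and at 1.16 and 1.98 FPKM in shFAM49B. The group levels were 11.6 ± 2.33 and 1.57 ± 0.582 FPKM, 7.39-fold lower (log2 fold change -2.30, SE 0.20, limma adjusted p = 0.0020). The groups were far apart and the call held in each alternative run. However, AC007923.1 entered the set through the shCON mean alone, so it had to be lower and its call is no support for a direction.

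NEAT1 fell as well, in contrast to its neighbour MALAT1. NEAT1 (chromosome 11, 65422774 to 65445540, plus strand) stood at 5.29 and 5.83 FPKM in shCON and at 2.23 and 2.20 FPKM in shFAM49B. The group levels were 5.56 ± 0.379 and 2.22 ± 0.0172 FPKM, 2.51-fold lower (log2 fold change -1.03, SE 0.083, limma adjusted p = 0.0019). The value rested on 2032, 2453, 778 and 751 reads, and the knockdown libraries lay close together below both controls. MALAT1 (chromosome 11, 65497688 to 65506516, plus strand) stood at 5.06 and 4.74 FPKM in shCON and at 7.62 and 6.76 FPKM in shFAM49B. The groups did not overlap in the other direction, and the level was 1.47-fold higher (log2 fold change 0.47, SE 0.082, limma adjusted p = 0.0096). The rise of MALAT1 was weaker when rescaled to TPM (log2 fold change 0.29, limma adjusted p = 0.0622), relative to recovered reads (0.28, 0.0523) and without shCON 2 (0.43, 0.0572). The table gives 1 level per gene, so the short and long forms of NEAT1 were not told apart.

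The other largest falls were mostly short, scarce RNAs. AC008736.1, which lies head to head with NUDT19, fell 3.01-fold (6.65 ± 0.695 against 2.21 ± 0.367 FPKM). AC025176.1 fell 3.11-fold (4.51 ± 0.512 against 1.45 ± 0.537 FPKM), AC127024.5 fell 3.32-fold (3.79 ± 0.1 against 1.14 ± 0.182 FPKM) and AP001767.3 fell 3.10-fold (3.05 ± 0.106 against 0.985 ± 0.124 FPKM). In these 4 genes the groups were apart and the calls held in each alternative in which they were tested. However, AC025176.1, AC127024.5 and AP001767.3 entered the set through the shCON mean alone. They had to be lower, so their separation and calls are no support for a direction. AC127024.5 shares 133 exonic bases with CRLF3 on the opposite strand, and AP001767.3 shares 295 with RAB30-AS1. Whether counting used strand is not given, so reads of such pairs cannot be told apart. AL354872.2 fell 2.32-fold and AC002351.1 fell 2.65-fold. AC002351.1 also entered the set through the shCON mean alone. AL354872.2 failed without shCON 1 or shCON 2 (limma adjusted p = 0.0813 and 0.0942), and AC002351.1 without shCON 2 or shFAM49B 2 (limma adjusted p = 0.114 and 0.125).

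**Figure D4:**
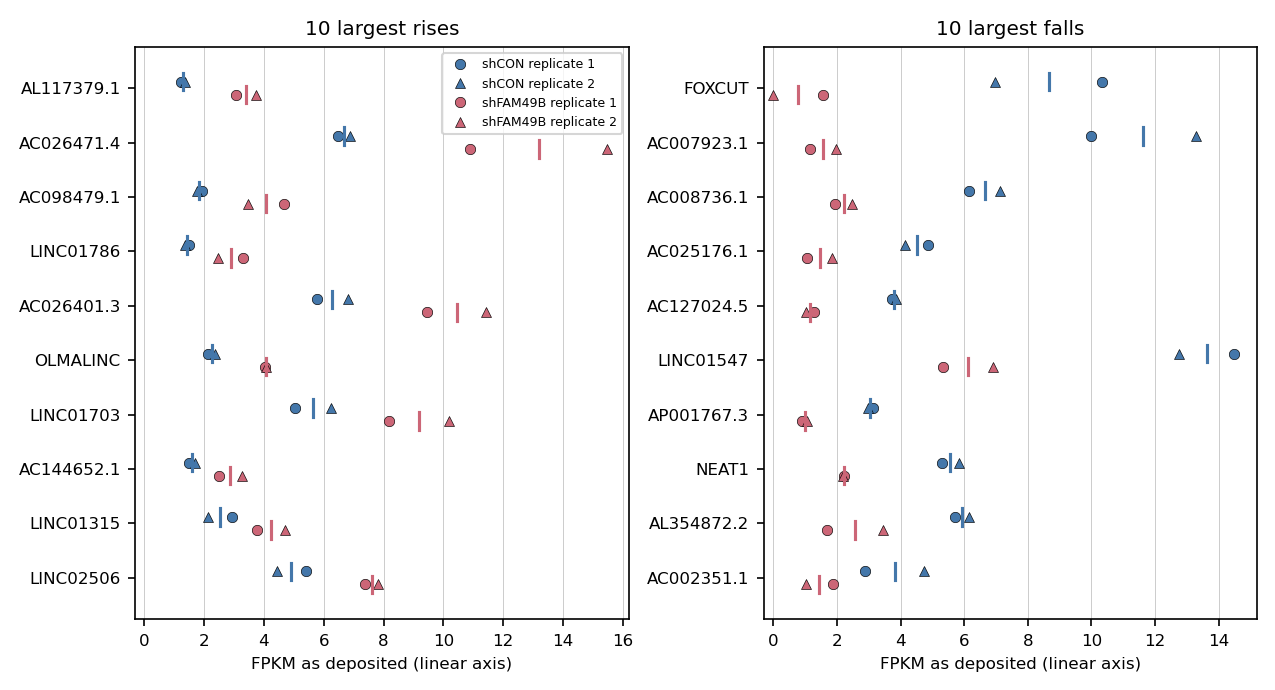
FPKM as deposited (horizontal linear axes) of the 10 lincRNAs with the largest log2 rise and the 10 with the largest log2 fall among those that passed the test, with 1 point per library and a bar at each group mean. These genes were chosen for their change, so the separation of the groups is not a finding; FOXCUT reaches 0 in 1 knockdown library.

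The largest rise was that of AL117379.1, a single-exon RNA that lies inside the gene DIDO1 on the same strand. It stood at 1.23 and 1.36 FPKM in shCON and at 3.08 and 3.75 FPKM in shFAM49B, 2.64-fold higher (log2 fold change 0.94, SE 0.12, limma adjusted p = 0.0041). AL117379.1 entered the set through the shFAM49B mean alone, so it had to be higher and its call is no support for a direction. DIDO1 itself fell from 12.8 to 7.92 FPKM (log2 fold change -0.63, limma adjusted p = 0.0024). AC026401.3 lies inside NDE1, a gene for a dynein regulator, on the same strand, and was 1.66-fold higher (6.29 ± 0.725 against 10.5 ± 1.4 FPKM), while NDE1 rose from 6.54 to 10.2 FPKM (log2 fold change 0.57, limma adjusted p = 0.015). Neither AL117379.1 nor AC026401.3 shares exonic bases with its host gene. Reads of unspliced host RNA could be counted in both lincRNAs, and the 2 sources cannot be told apart. OLMALINC, named for oligodendrocyte maturation, stood at 2.13 and 2.37 FPKM in shCON and at 4.03 and 4.08 FPKM in shFAM49B. It was 1.80-fold higher (log2 fold change 0.64, SE 0.087, limma adjusted p = 0.0049), and its groups were far apart against their spread.

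Of the 10 largest rises, AL117379.1 and OLMALINC passed under each alternative in which they were tested. AL117379.1, AC098479.1, LINC01786 and AC144652.1 entered the set through the shFAM49B mean alone. They had to be higher, so their calls are no support for a direction. AC098479.1 is 154 bases long and rose on 5, 5, 11 and 8 reads, and with voom on the recovered reads it did not pass (limma adjusted p = 0.211). LINC01786 was 2.01-fold higher and LINC01703 1.62-fold higher, LINC01315 1.66-fold, LINC02506 1.55-fold and AC144652.1 1.80-fold. Rescaled to TPM, LINC01703, AC144652.1 and LINC01315 failed (limma adjusted p = 0.0615, 0.0552 and 0.0912), as they did relative to the recovered reads (limma adjusted p = 0.0595, 0.0548 and 0.086). LINC01786 also failed with voom (limma adjusted p = 0.101). Without shCON 1, LINC01786, AC026401.3, LINC01703 and AC144652.1 failed (limma adjusted p = 0.0591, 0.0526, 0.082 and 0.103), as did AC026471.4. Without shCON 2, LINC01786, AC144652.1 and LINC01315 failed (limma adjusted p = 0.0712, 0.0666 and 0.127). Without shFAM49B 1, LINC01786 and LINC01315 failed (limma adjusted p = 0.058 and 0.0556). Without shFAM49B 2, AC026401.3, LINC01703, AC144652.1, LINC01315 and LINC02506 failed (limma adjusted p = 0.0509, 0.0842, 0.0925, 0.15 and 0.068).

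Promoters from RefSeq (GRCh38.p14, 250 bases before to 50 after the start) were matched for 67 of the 166 lincRNAs. They are shown for FOXCUT, LINC01547 and AP001767.3, the largest falls with a match, and for OLMALINC and LINC01703 among the rises. LINC01786 is not shown because its RefSeq start lay 1221 bases from the table's start, against at most 64 for the others. Capitals mark matches on either strand to the GC box GGGCGG, the CCAAT box CCAAT, the AP-1 site TGANTCA, the heat shock element GAANNTTC and the E-box CACGTG.

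LINC01547, chr21:44939864-44940163, minus strand: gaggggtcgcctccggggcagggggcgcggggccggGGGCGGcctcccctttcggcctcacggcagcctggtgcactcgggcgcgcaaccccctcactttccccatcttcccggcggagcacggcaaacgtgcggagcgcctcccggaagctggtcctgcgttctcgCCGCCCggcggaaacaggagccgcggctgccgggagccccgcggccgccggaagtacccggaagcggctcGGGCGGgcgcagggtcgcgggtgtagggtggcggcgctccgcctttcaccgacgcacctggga

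FOXCUT, chr6:1605281-1605580, plus strand: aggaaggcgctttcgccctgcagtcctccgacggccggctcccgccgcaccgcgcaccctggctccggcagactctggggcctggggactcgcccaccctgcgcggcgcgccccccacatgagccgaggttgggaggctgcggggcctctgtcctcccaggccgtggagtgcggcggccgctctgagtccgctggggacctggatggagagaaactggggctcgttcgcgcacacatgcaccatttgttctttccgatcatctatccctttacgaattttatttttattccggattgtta

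AP001767.3, chr11:83097147-83097446, minus strand: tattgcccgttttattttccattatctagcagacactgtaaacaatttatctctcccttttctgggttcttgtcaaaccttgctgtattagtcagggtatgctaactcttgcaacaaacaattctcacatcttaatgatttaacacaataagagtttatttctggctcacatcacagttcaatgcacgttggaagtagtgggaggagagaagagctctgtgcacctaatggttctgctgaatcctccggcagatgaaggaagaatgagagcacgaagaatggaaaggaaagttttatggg

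OLMALINC, chr10:100373326-100373625, plus strand: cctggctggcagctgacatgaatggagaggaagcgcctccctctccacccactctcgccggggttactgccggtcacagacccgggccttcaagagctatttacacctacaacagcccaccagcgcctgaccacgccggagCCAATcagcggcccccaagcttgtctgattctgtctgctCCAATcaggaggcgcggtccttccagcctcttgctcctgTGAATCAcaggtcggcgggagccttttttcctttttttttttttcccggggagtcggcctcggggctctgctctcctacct

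LINC01703, chr1:226083325-226083624, plus strand: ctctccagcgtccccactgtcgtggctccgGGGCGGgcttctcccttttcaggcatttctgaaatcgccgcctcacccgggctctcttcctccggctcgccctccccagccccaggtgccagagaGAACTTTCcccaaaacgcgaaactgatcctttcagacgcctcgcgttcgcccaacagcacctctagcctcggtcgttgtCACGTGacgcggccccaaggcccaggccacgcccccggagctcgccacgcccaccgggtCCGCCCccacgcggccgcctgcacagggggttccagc

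LINC01547 held 3 GC boxes, OLMALINC 2 CCAAT boxes and an AP-1 site, and LINC01703 a heat shock element, an E-box and 2 GC boxes. The search also included the CRE site TGACGTCA, the TATA box TATAAA, the TEAD site GGAATG and, added after values were seen, the sterol regulatory element TCACNCCAC. None of the 9 motifs was in the FOXCUT or AP001767.3 window. Over the 67 lincRNA promoters and all 35116 RefSeq promoters the shares were 59.7% and 45.0% for the GC box, 47.8% and 34.6% for the CCAAT box, and 19.4% and 7.26% for the E-box. They were 1.49% and 7.71% for the AP-1 site, 5.97% and 6.77% for the heat shock element, and 5.97% and 1.85% for the CRE site. The TATA box was in 7.46% and 11.5%, the TEAD site in 13.4% and 14.0%, and the sterol regulatory element in 1.49% and 1.13%. These are counts of letters, were not tested, and do not show that a factor binds.

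Many lincRNAs start next to a protein-coding gene, so each was set beside its nearest one. Of 136 pairs with both genes tested, 76 moved with the same sign. In 29 pairs both genes passed the test: both fell in 11, both rose in 5, the lincRNA fell and the neighbour rose in 9, and the reverse held in 4. Across the 136 pairs the log2 fold changes had a Pearson r of 0.17 and a Spearman rho of 0.18, over pairs that share the same 4 libraries. Starts lay head to head within 5 kb for 53 lincRNAs, of which 15 fell (28.3%) and 5 rose (9.43%). Among the other 113 lincRNAs the shares were close to these, at 27.4% and 13.3%. Over all tested genes they were 15.8% and 26.4%. Of the 52 head-to-head pairs that could be compared, 26 had the same sign (Pearson r 0.10).

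Pairs of either kind were found among the named lincRNAs. AC144652.1 starts 235 bases from INSIG1, which holds back sterol synthesis, and INSIG1 rose from 9.49 ± 0.243 to 26.5 ± 0.214 FPKM (log2 fold change 1.39). OLMALINC lies 26389 bases from the start of SCD, a fatty acid desaturase, which rose from 122 ± 6.91 to 208 ± 5.99 FPKM (log2 fold change 0.76). The neighbours that fell with their lincRNA included NUDT19 beside AC008736.1 (22.4 ± 1.76 to 14.4 ± 0.082 FPKM), FOXC1 beside FOXCUT (71.0 ± 3.62 to 48.6 ± 2.78 FPKM) and FRMD8 beside NEAT1 (14.0 ± 0.0759 to 8.67 ± 0.172 FPKM). LINC01547 went the other way from FAM207A, 97 bases away, which rose from 16 ± 1.73 to 27.4 ± 0.0393 FPKM. AC138904.1 fell while SBK1, 455 bases away, rose from 10.4 ± 0.424 to 15.2 ± 0.776 FPKM. AC026471.4 rose while ARMC5 fell from 2.95 ± 0.177 to 1.73 ± 0.131 FPKM. Each neighbour named in this paragraph passed the limma test. The direction of FOXCUT and AC144652.1 was fixed, because each entered the set through 1 group alone. Their pairs are therefore no support for a shared direction.

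**Figure D5:**
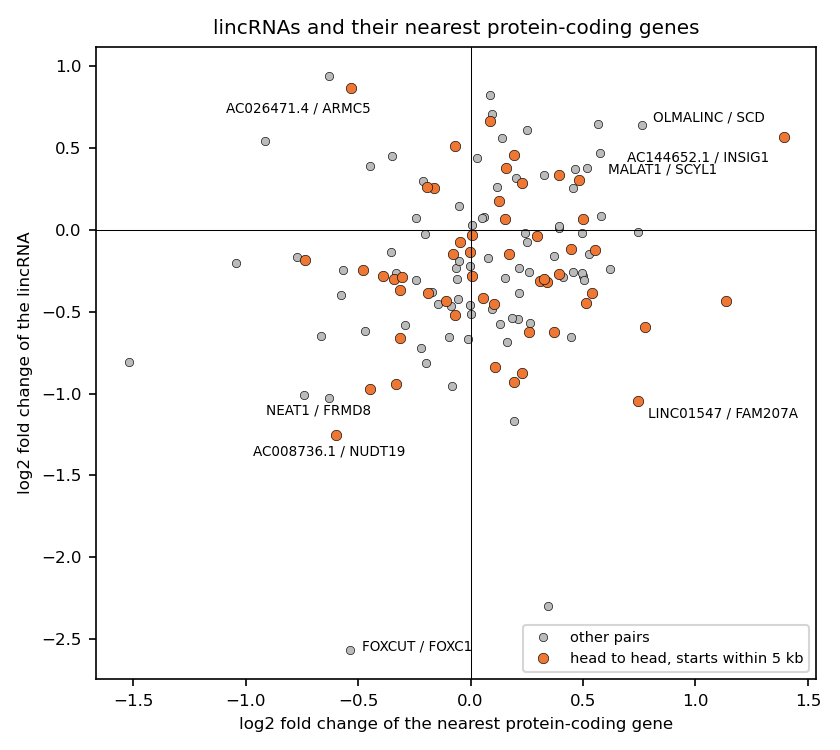
Log2 fold change of each lincRNA (vertical axis) against that of its nearest protein-coding gene (horizontal axis), both for shFAM49B against shCON on log2(FPKM + 1), for 135 pairs. Orange points are pairs that start head to head within 5 kb, and points lie in all 4 quadrants.

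LincRNAs with known roles were followed through lists that also hold genes outside the set. Each count is to be read against the 15.8% of all tested genes that fell and the 26.4% that rose, and in lists this short the difference from those shares was not tested. Of 13 tested RNAs of nuclear bodies, chromatin and scaffolds, 5 fell (NORAD, NEAT1, HOTAIR, TUG1 and NRAV) and 2 rose (MALAT1 and OIP5-AS1), with a median log2 fold change of -0.15 against 0.05 over all tested genes. Members among them were NORAD, NEAT1 and MALAT1, described above, and CRNDE (-0.08), FENDRR (-0.15) and PAXIP1-AS1 (-0.11), which did not pass. Of 5 p53-responsive lincRNAs, 3 fell (NORAD, NEAT1 and PURPL), PVT1 (0.09) and TP53TG1 (0.05) did not pass, and the median was -0.68. NORAD and NEAT1 stand in both lists.

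Of 12 lincRNAs studied in carcinoma growth or invasion, 5 fell (UCA1, HOTAIR, HCP5, LINC00963 and LINC00839) and 1 rose (PCAT6), with a median of -0.25. LINC00839 stood at 5.20 and 5.23 FPKM in shCON and at 3.71 and 3.72 FPKM in shFAM49B, 1.40-fold lower (limma adjusted p = 0.0096). It failed without shCON 1 or shCON 2 (limma adjusted p = 0.0643 and 0.0625). CASC9 (0.43), LINC00342 (-0.23), LINC00467 (-0.26) and LINC01234 (-0.16) did not pass. HOTAIR, a chromatin-associated RNA of the HOXC cluster that the table does not class as a lincRNA, fell from 3.87 and 3.72 to 1.75 and 1.62 FPKM (log2 fold change -0.84, limma adjusted p = 0.0031). UCA1 fell from 2.08 and 1.98 to 0.0628 and 0.0966 FPKM (log2 fold change -1.49, limma adjusted p = 0.0030), and passed the filter at a mean of 1 FPKM through shCON alone. None of 5 tested microRNA host genes was a member, and 3 fell: MIR17HG from 2.65 and 2.14 to 0.859 and 0.670 FPKM, MIR222HG from 1.68 and 2.56 to 0.984 and 0.648 FPKM, and MIR503HG from 2.26 and 2.19 to 1.13 and 0.916 FPKM. Like UCA1, MIR17HG and MIR222HG passed the filter at a mean of 1 FPKM through shCON alone. Genes of these 4 lists that are not members lie outside the rule for names and were named after their values were seen.

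The proteins that build paraspeckles or process the ends of NEAT1 and MALAT1 moved in both directions. Of 34 tested, 10 rose and 5 fell, shares near the 26.4% and 15.8% of all tested genes, with a median log2 fold change of -0.03. NONO, a core paraspeckle protein, rose from 136 and 133 to 249 and 257 FPKM (log2 fold change 0.90, limma adjusted p = 0.0013). POP7, a subunit of RNase P, rose from 54.7 and 59.4 to 90.3 and 90.4 FPKM, and SRSF2, a splicing factor of nuclear speckles, fell from 43.6 and 43.6 to 29.3 and 27.9 FPKM. Of 35 tested genes of the nuclear RNA exosome, its cofactors, related decay factors and PUMILIO, 11 rose and 4 fell (SMG5, SMG1, C1D and ZCCHC8), with a median of 0.12, again near the shares of all tested genes. EXOSC10, a catalytic subunit of the nuclear exosome, rose from 16.9 and 16.7 to 23.3 and 23.7 FPKM (log2 fold change 0.46). PABPN1 (0.44) and EXOSC1 (0.40) rose as well, but not when rescaled to TPM (limma adjusted p = 0.0533 and 0.0616). Whether these proteins bear on the lincRNA levels was not tested.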

How the data were processed

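The authors' deposited table holds FPKM per gene and library, beside positions, lengths and biotypes, per the file headers. Mouse builds (GRCm38, mm10) stand in the submitters' processing notes, but all 166 lincRNAs carry human identifiers with the starts, ends and merged exon lengths of GENCODE 29, so positions are on GRCh38. Aligner and counter: not given in the sources used here. Deposited FPKM values were whole multiples of 1 read for 100% of values (tolerance 0.001), which gave the reads. Values had been scaled before deposit: the implied denominators exceeded the read totals of the shCON libraries 1.08 and 1.10 times, and were 0.941 and 0.919 of the totals of shFAM49B. Replicates differed by more than counting noise (mean chi-square per gene 3.90 and 3.48) and each was kept.

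Log2(FPKM + 1) values were tested with limma 3.58.1 in R 4.3.3 (trended empirical Bayes, 2-sided, 2 residual and 3.32 prior degrees of freedom) over the 13775 genes that averaged 1 FPKM or more, with Benjamini-Hochberg adjustment and a threshold of 0.05. All adjusted p-values come from limma. Log2 fold changes on this scale understate changes of scarce genes, and folds are ratios of mean FPKM. The procedure was tested on simulated data. Separate cultures are not stated, so the p-values reflect the spread between these libraries alone, possibly technical. Names follow a rule: the 12 highest members (XIST not named, and 1 other not reported here), the 10 largest passing changes in each direction with groups that do not overlap, members of 4 lincRNA lists, the 3 smallest p-values of each protein list, the 3 genes on either side of the threshold, and their overlapping or nearest genes. The members and lists were chosen with earlier results of these data known, so their counts are no independent support. Alignments used blastn 2.17.0. Promoter motifs were searched on both strands. The PUMILIO motif was added after values were seen.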

Additional observations from a re-analysis of the deposited data

How the results depend on the processing

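In each of the alternatives run, the share of lincRNAs that fell was above, and the share that rose below, that of all tested genes. Members that passed the level rule through 1 group alone were among those counted. With no filter on low values, 3 lincRNAs rose and 24 fell, and 2185 and 1378 of all genes. With a filter at a mean of 5 FPKM, which left 47 lincRNAs, 11 rose and 15 fell, 1322 of all genes fell and the lincRNA median log2 fold change was -0.16. FAM49B was not tested at that filter. Rescaled to TPM, 7 lincRNAs rose, 1597 of all genes rose and 4362 fell, and the median was -0.50; relative to the recovered reads these were 7, 1722, 4173 and -0.42. With voom 12 lincRNAs rose and the median was -0.28. The median was -0.28 with a pseudocount of 0.1 and -0.29 with median ratios. Leaving out 1 library in turn, where the lone sample is assumed to vary like the other group, gave 7 to 15 lincRNAs higher and 27 to 39 lower, 1897 to 2495 of all genes higher and 1027 to 1529 lower, and a median of -0.23 to -0.18. With a replicate block 18 lincRNAs rose and 46 fell, and 1 named call was lost, that of LINC01315 (limma adjusted p = 0.0526). The deviations of same-numbered libraries had a correlation of -0.0132, so the numbers were not taken to pair samples. Signs reversed only in genes that did not pass: LINC02381 and PVT1 rescaled to TPM (-0.078 and -0.108) and relative to reads (-0.0551 and -0.0701), and CRNDE when a library was left out (range -0.173 to 0.0214). With no filter on low values, 8 of the 10 largest rises, 3 of the 10 largest falls and EBLN3P and AL035446.1 no longer passed; these genes were chosen for their change or level, so the counts compare no directions. Depth limits the set: 39 lincRNAs had under 20 reads in some library. With 2 libraries per group no outlying library could be tested for.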
